A study of Homo sapiens with 10 samples.

Results

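Noncoding RNA genes studied in cancer, MALAT1 and NEAT1 among them, were described in MDAMB231 cells by the chromatin marks around them. The set held 10 genes chosen by name, 9 annotated as long noncoding RNA (lncRNA) genes and 1, MIR21, as a microRNA (miRNA) gene, of 64486 genes in the GENCODE release 44 annotation on GRCh37. Peaks that shared at least 1 base with the gene bounds widened by 20 kb on each side were taken, which gave 13 of 18019 H3K4me3 peaks, 16 of 37495 H3K27Ac peaks, 7 of 26771 H3K4me1 peaks and 40 of 46552 FAIRE peaks. Some rows of the FAIRE list abut, so its counts are of rows and not of separate open sites. A peak was counted at the promoter when it lay within 1 kb of any annotated start site of the gene.

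The samples came from MDAMB231, an established human breast cancer line of the triple-negative type, grown untreated in DMEM that held 5% FBS. Antibodies were used to pull down DNA carried by modified histones (ChIP-seq) on 2 samples each for H3K4me1, H3K4me3 and H3K27Ac, with 1 input sample. FAIRE-seq, which recovers DNA poor in nucleosomes, was done on 2 samples, with 1 input sample of its own. Each assay had 1 peak list made from its combined samples, so no value below has a replicate error and no test between genes was possible.

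H3K4me3 is typical of active promoters, H3K4me1 of enhancers and promoter flanks, and H3K27Ac of active promoters and enhancers alike. A FAIRE peak marks open chromatin. None of these marks measures RNA, and a gene without a peak in these lists may lie below the threshold used by the peak caller.

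As a check of the cell line, promoters of genes with known behaviour in breast cancer lines were read in the same lists. All 6 genes high in mesenchymal triple-negative lines (AXL, CAV1, CD44, SNAI2, VIM and ZEB1) had both an H3K4me3 and an H3K27Ac peak at the promoter. Of 6 luminal and epithelial genes, 5 had H3K4me3 but 3 had H3K27Ac, and the genes without H3K27Ac were the hormone receptor genes ESR1 and PGR and the luminal factor gene FOXA1. CDH1, EPCAM and GATA3 did have promoter H3K27Ac. Over all protein-coding genes the shares were 67.1% for H3K4me3 and 63.2% for H3K27Ac, so lists of 6 genes say little about the line beyond the genes named.

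Several members act through small RNAs, and their mature sequences are shown because they place the product within each locus. All 7 mature sequences of MIR21, MIR155, MIR205 and MIR675 in the RefSeq table (build GRCh38.p14) matched GRCh37 once. Capitals mark the seed, bases 2 to 8, which pairs with target messages.
miR-21-5p: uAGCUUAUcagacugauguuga
miR-155-5p: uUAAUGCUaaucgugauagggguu
miR-205-5p: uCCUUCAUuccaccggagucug
miR-675-5p: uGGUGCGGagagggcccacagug
These 4 seeds differ from one another. The miR-21-5p sequence lay at chr17:57918634-57918655, inside both an H3K4me3 and an H3K27Ac peak. The miR-155-5p sequence at chr21:26946295-26946318 lay inside a FAIRE peak only. The miR-205-5p sequence at chr1:209605511-209605532 and the miR-675-5p sequence at chr11:2018030-2018052, within H19, lay under no peak of the 4 lists.

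The 10 genes fell into 5 with promoter H3K4me3 (MALAT1, NEAT1, GAS5, SNHG1 and MIR21) and 5 with no promoter peak in any list (HOTAIR, H19, MEG3, MIR155HG and MIR205HG). Among all 18702 lncRNA genes, 25.1% had promoter H3K4me3, beside 67.1% of 20176 protein-coding genes and 9.31% of 3049 miRNA genes. Promoter H3K27Ac was found at the same 5 genes, where the shares were 27.8% of lncRNA genes, 63.2% of protein-coding genes and 12.6% of miRNA genes. FAIRE peaks touched 4 of the 10 promoters (MALAT1, NEAT1, GAS5 and SNHG1), beside 16.9% of lncRNA, 39.2% of protein-coding and 6.17% of miRNA genes. H3K4me1 touched 3 (NEAT1, GAS5 and SNHG1), beside 11.0%, 20% and 6.66% in the same order. The H3K4me1 count fell to 1 of 10 with the outermost start or with stricter peaks, whereas the shares above are for any start and all peaks. Without peaks that hold a coding start, a setting chosen after seeing the data, H3K4me3, H3K27Ac and FAIRE were each at 2 of 10. Promoter H3K4me3 with no coding start in the peak was found at 1394 of all 18702 lncRNA genes. The like share was not computed for H3K27Ac or FAIRE, so those 2 counts have no comparison. The 10 genes were picked by name and are no sample of their class.

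Any start site of a gene could give a promoter call, so a gene with more start sites had more places where a peak was counted. The median lncRNA gene had 1 start site, whereas MALAT1 had 40, MEG3 34, SNHG1 26 and H19 24. Promoter H3K4me3 was found at 20.3% of lncRNA genes with 1 start site and at 60.1% of the 223 with over 20. MEG3 and H19 belonged to that last class and still had no promoter peak. With the outermost start only, H3K4me3 and H3K27Ac stayed at 5 of 10 members, H3K4me1 fell from 3 to 1 and FAIRE from 4 to 3. Beyond this recount, the part of start site number was not tested.

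**Figure D1:**
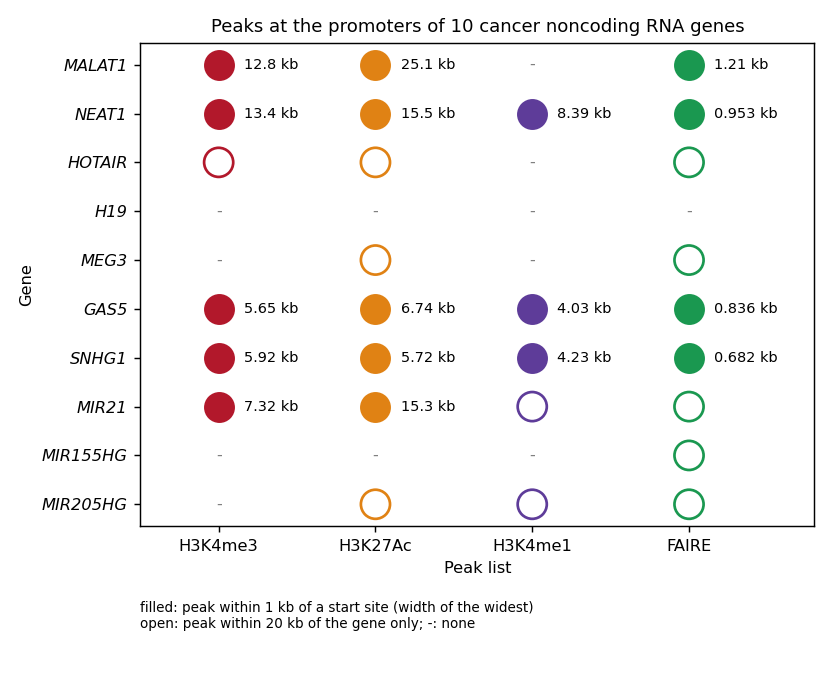
Each row is a gene and each column a peak list; filled circles are peaks within 1 kb of a start site, with the width of the widest, and open circles are genes with a peak within 20 kb of the gene only. MALAT1, NEAT1, GAS5, SNHG1 and MIR21 hold all filled circles, and H19 has no circle in any list.

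When any peak in the bounds widened by 20 kb was counted, 6 of 10 genes had H3K4me3, 8 had H3K27Ac, 5 had H3K4me1 and 9 had FAIRE. The shares over lncRNA genes were 48.0%, 58.2%, 38.3% and 54.7%. H19 was the member without a peak of any kind. The 5 genes with promoter H3K4me3 held 35 of the 40 FAIRE peaks and 13 of the 16 H3K27Ac peaks, and the other 5 genes held 5 and 3. MALAT1, NEAT1 and MIR21 held 11, 9 and 8 of those FAIRE peaks, whereas GAS5 had 1, as did HOTAIR, MEG3 and MIR155HG.

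MALAT1, an abundant nuclear RNA of splicing speckles, spans chr11:65265111-65275544. Its promoter H3K4me3 peak, chr11:65263771-65276604, was 12.8 kb wide and covered 100% of the gene. Only 11 of 18019 H3K4me3 peaks were wider. Among 2553 lncRNA genes of 5 kb or more with promoter H3K4me3, the median gene had 5.51% of its length under the mark. Of these genes 99.9% had a smaller share than MALAT1, 97.6% a smaller share than GAS5 and 93.7% a smaller share than NEAT1. For a given peak width this share is larger in a shorter gene, and MALAT1 is 10.4 kb long. The peak ran past the 3′ end, and it held all 40 annotated start sites of MALAT1, some of which are internal.

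The H3K27Ac peak over MALAT1 was 25.1 kb wide, from 13.1 kb before the canonical start to 12.0 kb after it, and 24 peaks of the list were wider. Its score, the log10 of the p-value from MACS multiplied by minus 10, was 530.2, with 47.4% of H3K27Ac peaks lower. A wide peak was thus not a high-scoring one here. MALAT1 had no H3K4me1 peak within 20 kb, and the nearest lay 38.8 kb away, on the side of NEAT1.

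The MALAT1 window held 11 FAIRE peaks, more than at 99% of lncRNA genes. Some of these abut, such as chr11:65258380-65260024 and chr11:65260025-65260900, so they are not 11 separate open sites. The tallest, chr11:65254509-65255576, had a height of 187 in the authors' units, above 99.8% of all FAIRE peaks, and ended 9.54 kb before the canonical start. Its centre overlaps an exon of another lncRNA gene, LINC02736. The peak over that start had a height of 92.0, and the next, over a cluster of starts 1.40 kb downstream, had 70.1. The tallest FAIRE peak of the window was therefore upstream and inside the wide H3K27Ac peak, not at the MALAT1 start.

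The promoters at these 2 groups of MALAT1 starts are shown because both lay under H3K4me3, H3K27Ac and FAIRE peaks yet differ in composition. Sequences are from RefSeq (GRCh38.p14), on the + strand, from 250 bases before the start to 50 after, and capitals mark GC boxes (GGGCGG) in the first and a TATA box (TATAAA) in the second, on either strand.
MALAT1 upstream start, chr11:65264959-65265258 (GRCh37): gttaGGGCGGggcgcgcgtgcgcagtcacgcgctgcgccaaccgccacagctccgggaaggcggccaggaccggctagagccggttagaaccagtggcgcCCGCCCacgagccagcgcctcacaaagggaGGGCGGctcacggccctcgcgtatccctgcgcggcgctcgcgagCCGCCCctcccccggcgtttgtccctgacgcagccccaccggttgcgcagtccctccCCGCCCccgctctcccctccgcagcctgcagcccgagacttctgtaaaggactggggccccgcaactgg
MALAT1 downstream start, chr11:65266266-65266565 (GRCh37): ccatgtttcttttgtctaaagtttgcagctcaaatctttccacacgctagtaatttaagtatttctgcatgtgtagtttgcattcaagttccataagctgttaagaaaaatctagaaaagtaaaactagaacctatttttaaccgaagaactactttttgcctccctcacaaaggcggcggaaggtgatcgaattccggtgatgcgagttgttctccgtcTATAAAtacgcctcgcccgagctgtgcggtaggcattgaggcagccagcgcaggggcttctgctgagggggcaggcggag
The upstream promoter had a GC content of 73.7% and 5 GC boxes, and the downstream one 46.0% and none. Over 35116 promoters of the table the median GC content was 58.7%, 45.0% held a GC box and 11.5% a TATA box. The ratio of observed to expected CpG was alike at both, 0.925 and 0.885, beside a median of 0.579. A match to a motif describes these letters only.

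NEAT1, the RNA that builds paraspeckles, lies 52.1 kb from MALAT1 on the same strand, at chr11:65190245-65213011. Its promoter H3K4me3 peak, chr11:65183415-65196766, was 13.4 kb wide, with 7 wider peaks in the list. It ran from 6.85 kb before the canonical start to 6.50 kb after it and covered 28.6% of the gene, so that it was centred near the start. The H3K27Ac peak followed it closely, with a width of 15.5 kb and a score of 3100, at which MACS values pile up.

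NEAT1 was the member with the widest promoter H3K4me1 peak, 8.39 kb, which ended 0.43 kb after the canonical start and lay on its upstream side. Of its 9 FAIRE peaks the tallest 3 were upstream, with heights of 128, 97.8 and 70.9. These 3 abut in a row, and the nearest of them ended 1.11 kb before the canonical start. No FAIRE peak covered that start. The promoter call came from a low peak, of height 37.7, that lay 0.372 kb from an internal start, and 10.9% of FAIRE peaks were lower. With the stricter FAIRE threshold or with the canonical start alone, NEAT1 had no FAIRE peak at the promoter. A further cluster with all 3 histone marks and 4 FAIRE peaks stood from 29.3 kb to 36.0 kb after the start, beyond the end of the gene.

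GAS5 and SNHG1 host small nucleolar RNAs in their introns, which guide modification of ribosomal RNA. GAS5 (chr1:173827697-173838020) had a promoter H3K4me3 peak of 5.65 kb and an H3K27Ac peak of 6.74 kb with a score of 868. SNHG1 (chr11:62619450-62623425) had an H3K4me3 peak of 5.92 kb and an H3K27Ac peak of 5.72 kb with a score of 1634. Both had a FAIRE peak over the canonical start, of height 105 at GAS5 and 109.5 at SNHG1. At both, the H3K4me1 peak began about as far after the start, 1.06 kb and 1.01 kb, and lay over the gene.

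Both genes have coding starts close to their own. A start of ZBTB37, a zinc finger gene, lay 0.087 kb from a start of GAS5 on the other strand, and a start of SLC3A2, which encodes a subunit of amino acid transporters, lay 0.051 kb from a start of SNHG1. The canonical starts were further apart, 0.391 kb for GAS5 and ZBTB37 and 24974 bp for SNHG1 and SLC3A2. The promoter H3K4me3 and FAIRE peaks of each held those coding starts, so the signal cannot be told apart between the paired genes. This was common, since 70.3% of the 4687 lncRNA genes with promoter H3K4me3 had a coding start in that peak. The 118 bases before the RefSeq start of SNHG1 and 50 from it, cut where a UTR of SLC3A2 begins, are shown because they lie under H3K4me3, H3K27Ac and FAIRE peaks. They are on the strand of SNHG1 (GRCh38.p14), with a GC box and a TATA box sequence in capitals.
SNHG1, chr11:62623308-62623475 (GRCh37): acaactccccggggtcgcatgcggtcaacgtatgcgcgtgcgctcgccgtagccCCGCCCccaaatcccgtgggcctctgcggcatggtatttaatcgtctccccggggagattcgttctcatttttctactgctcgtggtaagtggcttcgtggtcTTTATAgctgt
Its 300-base promoter had a ratio of observed to expected CpG of 1.12, above 98.0% of promoters. The TATA box letters stood after the start, not before it. STX5, TEX54 and WDR74, the other coding genes with a start in the SNHG1 window, all had H3K4me3, H3K27Ac and FAIRE peaks at the promoter. The shares of all protein-coding genes were 67.1%, 63.2% and 39.2% in that order.

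Of the 14 other genes in the snoRNA host list, 1 of them annotated as protein-coding, all had promoter H3K4me3 and H3K27Ac, 11 had FAIRE and 4 had H3K4me1. The shares of all lncRNA genes were 25.1%, 27.8%, 16.9% and 11.0% in that order. The widest H3K4me3 peaks of the list were at ZFAS1, 8.01 kb, and SNHG3, 6.44 kb. The peaks of GAS5 and SNHG1 were wider than the list's median of 4460 bp.

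MIR21, whose hairpin lies near the 3′ end of VMP1 on the same strand, was the miRNA gene of the set (chr17:57918627-57918698). The H3K4me3 peak over it was 7.32 kb wide and ran from 4.85 kb before the hairpin to 2.48 kb after it, and 116 peaks were wider. The H3K27Ac peak was 15.3 kb wide with a score of 1340, and 2 others of score 3100 flanked it within 20 kb. Together H3K27Ac covered 81.1% of the window, the largest share of the 10 genes. The hairpin's 5′ end is the only annotated start of MIR21, so a promoter call at MIR21 means a peak within 1 kb of the hairpin's 5′ end. The H3K4me3 peak also held a start of a VMP1 transcript 3.31 kb before the hairpin, whereas the canonical VMP1 start was 134 kb away.

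No FAIRE peak lay within 1 kb of the MIR21 hairpin, but 8 lay in the window, some of them abutting. This was more than at 97.8% of lncRNA genes, and the rank among miRNA genes was not computed. The heights of these peaks reached 180.2, and 7 of 8 were at or above the list's median of 61.1. The peak next to the hairpin on its upstream side, chr17:57914461-57915636, had a height of 179, above 99.6% of the list, and ended 2.99 kb before the hairpin. It held the same VMP1 start. Its centre is shown because the peak was the tallest FAIRE peak upstream of the miRNA within the window. The centre was read from GRCh37 on the + strand, with GC boxes in capitals. It overlaps an exon of a VMP1 transcript and no annotated UTR.
MIR21 upstream FAIRE peak, chr17:57914898-57915197: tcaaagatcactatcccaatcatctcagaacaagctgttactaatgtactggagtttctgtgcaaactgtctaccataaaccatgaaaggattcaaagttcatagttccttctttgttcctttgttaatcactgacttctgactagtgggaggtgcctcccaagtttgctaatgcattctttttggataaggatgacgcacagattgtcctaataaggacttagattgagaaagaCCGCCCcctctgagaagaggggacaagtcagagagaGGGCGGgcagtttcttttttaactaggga
The central 300 bases held 2 GC boxes, and 11.7% of all 46552 FAIRE peaks had at least 1 there. They held no AP-1 sequence (TGAGTCA), although 3 of the other MIR21 FAIRE peaks did.

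**Figure D2:**
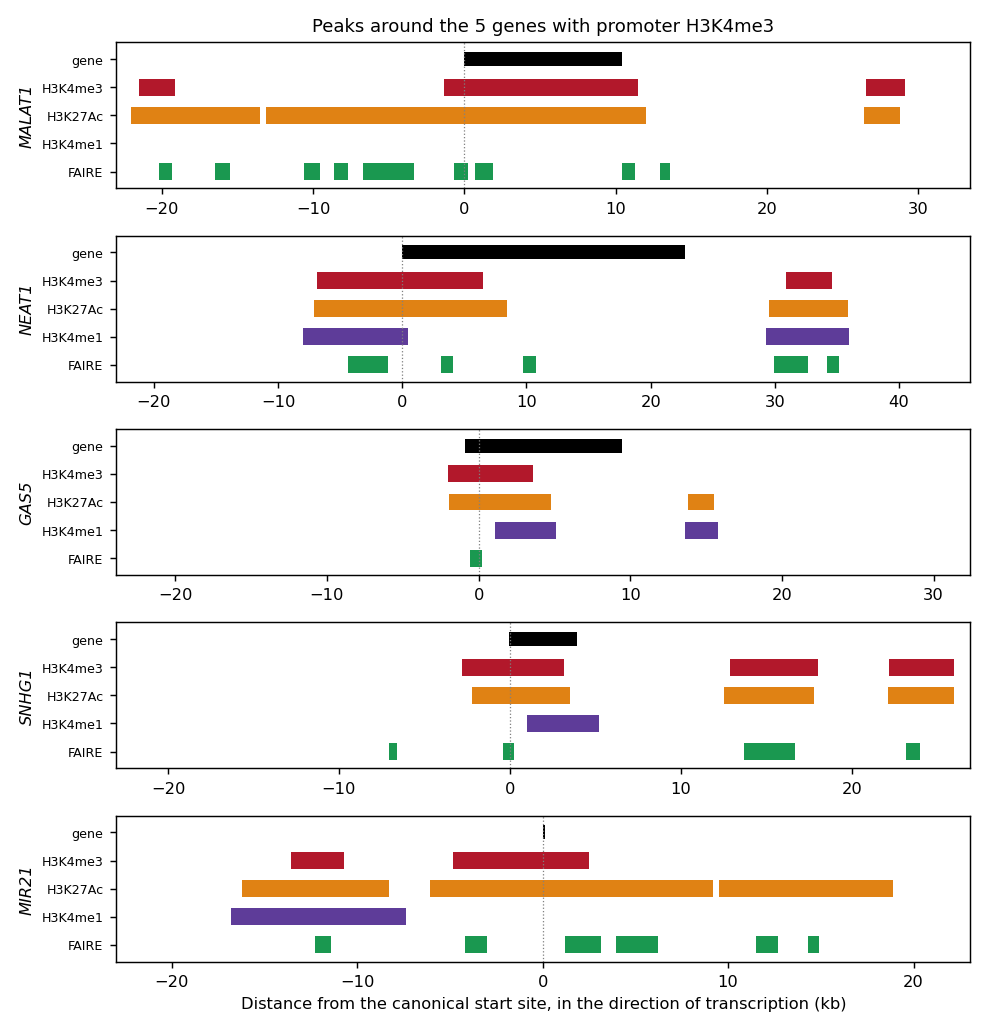
Peaks of the 4 lists (coloured bars) around the 5 genes with promoter H3K4me3 are drawn by distance in kb from the canonical start, with the gene in black and transcription from left to right. H3K4me3 covers all of MALAT1 and is centred on the start at NEAT1, while at MIR21 the FAIRE peaks stand on both sides of the hairpin.

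The H3K4me3 scores of all 5 promoter peaks were at 3100, where 43.2% of that list was lower and the rest tied or higher, so these genes could be ordered by width only. NEAT1 was followed by MALAT1, MIR21, SNHG1 and GAS5. By H3K27Ac score the order was NEAT1, SNHG1, MIR21, GAS5 and MALAT1. Without replicates, no neighbours in either order can be said to differ.

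**Figure D3:**
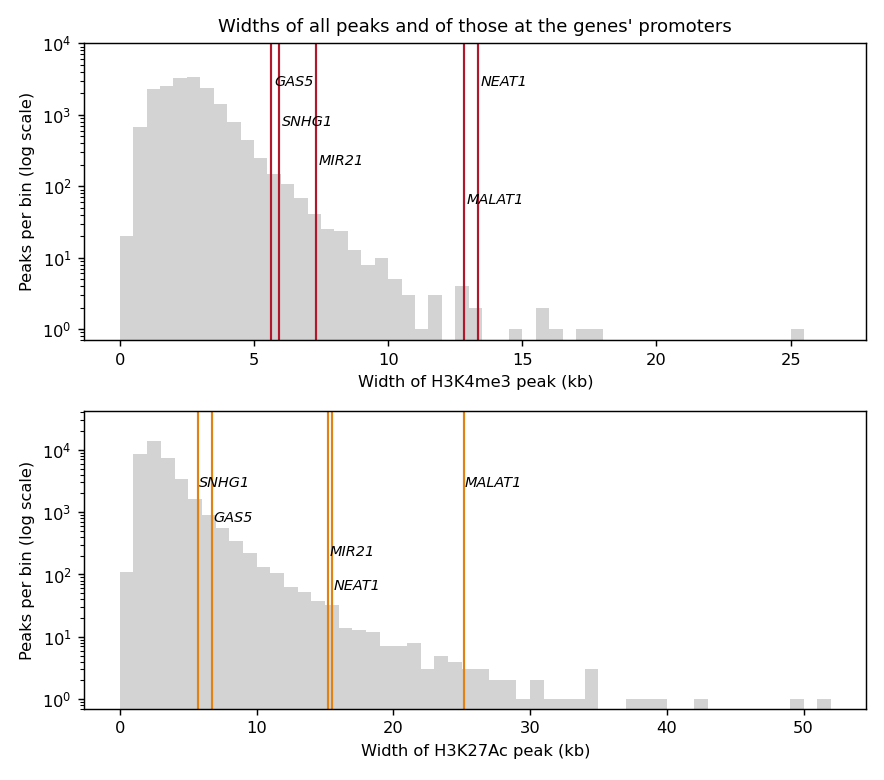
Grey bars count all H3K4me3 peaks (top) and H3K27Ac peaks (bottom) by width in kb on a log scale, and coloured lines give the peaks at the genes' promoters. MALAT1 and NEAT1 stand in the far tail of the H3K4me3 list, with 11 and 7 wider peaks.

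HOTAIR, transcribed from within the HOXC cluster and known for binding repressive chromatin complexes, had no promoter peak (chr12:54356092-54368740). Its nearest H3K4me3 peak, 14.0 kb upstream, had a score of 94.6, lower than all but 8.11% of the list. A stronger pair of H3K4me3 and H3K27Ac peaks began 19.7 kb and 19.4 kb upstream, over starts of HOXC6 and HOXC9. HOXC11, with a start 0.112 kb from one of HOTAIR, and HOXC10, HOXC12 and ENSG00000273049 also had no promoter peak. Over all protein-coding genes, 67.1% had promoter H3K4me3 and 63.2% had H3K27Ac. The FAIRE peak nearest HOTAIR, chr12:54382595-54383494, lay 13.9 kb upstream with a height of 67.91, above 59.7% of the list, and its centre overlaps an exon of HOXC10. All 4 peaks of this window lay upstream of HOTAIR.

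In the list of lncRNA genes of the HOX clusters, 3 of 14 had promoter H3K4me3, 4 had H3K27Ac and none had H3K4me1 or FAIRE. The shares of all lncRNA genes were 25.1%, 27.8%, 11.0% and 16.9% in that order, so few of 14 genes would have the last pair at the rate of the class. The widest H3K4me3 peaks were at HOXB-AS3, 3.19 kb, and HOXC-AS2, 2.33 kb. HOTAIRM1 and HOXA-AS3 were, like HOTAIR, among the 10 without any promoter peak, beside 65.7% of all lncRNA genes. Without HOTAIR, 9 of 13 had none.

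H19 and MEG3 are imprinted genes, expressed from the maternal copy in normal tissue. H19 (chr11:2016396-2025782), which also yields miR-675, had its nearest H3K4me3 peak 46.0 kb away, over the start of MRPL23, and its nearest FAIRE peak 72.2 kb away. MEG3 (chr14:101245747-101327368) had 1 H3K27Ac peak, of score 517, and 1 FAIRE peak, of height 61.2, that ended 15.8 kb and 17.4 kb before the outermost start. The RefSeq start of MEG3 lay 46.7 kb further downstream, so by that start the same peaks were 62.5 kb and 64.1 kb away. Of the 8 imprinted noncoding genes found in the annotation, 1, KCNQ1OT1, had promoter H3K4me3, with a peak of 3.73 kb. AIRN, H19 and MEG3 were among 6 with no promoter peak. Without H19 and MEG3, 1 of 6 had promoter H3K4me3 and 4 had no promoter peak. Over all lncRNA genes 25.1% had promoter H3K4me3 and 65.7% had no promoter peak.

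MIR155HG, the host of the inflammatory miRNA miR-155, had 1 peak in its window (chr21:26934122-26947480). This FAIRE peak, chr21:26945954-26946641, covered the miR-155 sequences 12.2 kb from the start, with a height of 33.7, and 6.28% of the list was lower. It was the lowest of the 40 FAIRE peaks near the 10 genes. The promoter is shown because it carries the letters of an AP-1 site and a TATA box, in capitals, yet touched no peak (RefSeq, GRCh38.p14, + strand).
MIR155HG, chr21:26934207-26934506 (GRCh37): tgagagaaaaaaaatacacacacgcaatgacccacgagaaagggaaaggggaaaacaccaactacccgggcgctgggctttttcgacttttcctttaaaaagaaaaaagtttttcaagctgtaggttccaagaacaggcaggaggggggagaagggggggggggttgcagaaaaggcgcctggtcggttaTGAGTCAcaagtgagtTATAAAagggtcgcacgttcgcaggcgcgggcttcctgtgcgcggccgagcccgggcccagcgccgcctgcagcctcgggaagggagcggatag
The AP-1 letters were found in 4.95% of all promoters, and in the central 300 bases of 30.7% of FAIRE peaks. Its ratio of observed to expected CpG, 0.891, was close to that of the marked downstream MALAT1 promoter.

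MIR205HG hosts miR-205, an epithelial miRNA that targets ZEB1 and ZEB2 (chr1:209602162-209606193). It had no H3K4me3 peak within 214 kb, and its RefSeq promoter had a CpG ratio of 0.0527, lower than all but 4.57% of promoters. A group of H3K27Ac, H3K4me1 and FAIRE peaks lay upstream, with near edges 17.8 kb, 16.1 kb and 18.3 kb from the start. Their H3K27Ac score of 176 and FAIRE height of 56.3 were below the medians of 591 and 61.1, while the H3K4me1 score of 174 was above the median of 114. The FAIRE peak nearest the gene, chr1:209608836-209609507, lay 2.64 kb past its end with a height of 53.2. The centre of the upstream FAIRE peak held both an AP-1 and a TEAD (GGAATG) sequence.

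**Figure D4:**
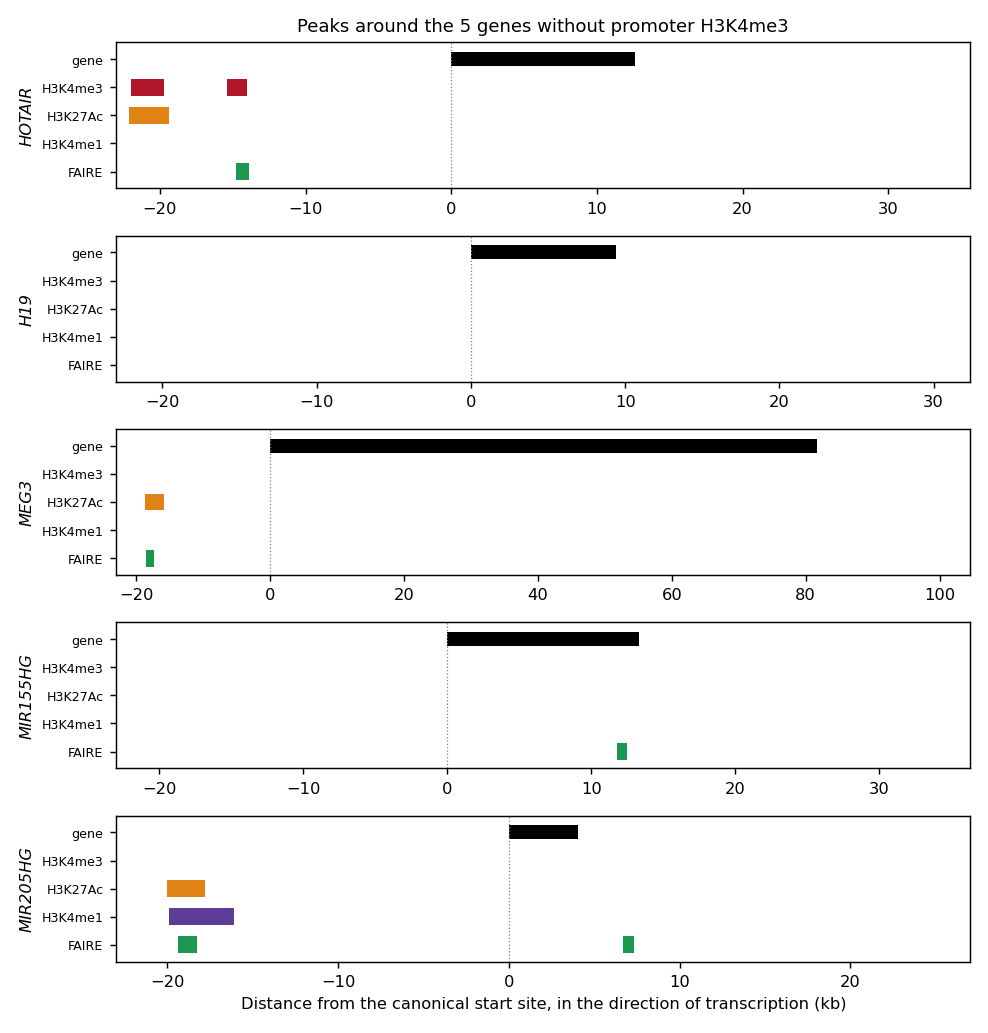
The same 4 lists are drawn in kb from the canonical start for the 5 genes without promoter H3K4me3, with the gene in black. At HOTAIR, MEG3 and MIR205HG most peaks stand 13.9 kb or more upstream of the start, at MIR155HG 1 FAIRE peak lies in the gene, and the H19 window is empty.

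Among the 19 miRNA host genes listed, 15 had promoter H3K4me3, 13 had H3K27Ac, 7 had H3K4me1 and 7 had FAIRE, beside 25.1%, 27.8%, 11.0% and 16.9% of all lncRNA genes. MIR155HG, MIR205HG and CARMN, which hosts miR-143 and miR-145, were 3 of the 4 without a promoter peak, beside 65.7% of lncRNA genes. Without MIR155HG and MIR205HG, 2 of 17 had none. The widest H3K4me3 peaks of the list were at MIR100HG, 15971 bp, and MIRLET7BHG, 9419 bp. The H3K27Ac peak at MIR100HG was 51060 bp, the widest of its list. A further list of lncRNA genes studied in cancer held MALAT1, NEAT1 and 15 others, of which 1 is annotated as protein-coding. Of those 15, 10 had promoter H3K4me3 and 10 had H3K27Ac, beside 25.1% and 27.8% of lncRNA genes. BCAR4, DSCAM-AS1 and FENDRR were among the 5 with no promoter peak, beside 65.7%. NEAT1 and MALAT1 had the widest H3K4me3 peaks of the list.

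The combination of lists at each promoter was set beside that of all lncRNA genes. NEAT1, GAS5 and SNHG1 had all 4 lists, as did 3.26% of lncRNA genes, and MALAT1 had all but H3K4me1, as did 7.80%. With stricter peaks H3K4me1 was left at NEAT1 only, and NEAT1 then lost its FAIRE call. MIR21 had H3K4me3 with H3K27Ac alone, found at 8.98% of lncRNA genes. MIR21 is a miRNA gene, and the share of this combination over miRNA genes was not computed. Of miRNA genes, 9.31% had promoter H3K4me3 and 12.6% had H3K27Ac, with or without other marks. The 5 genes without a promoter peak were like 65.7% of lncRNA genes. Where a lncRNA gene had promoter H3K4me3, H3K27Ac was there in 86.7%, FAIRE in 45.5% and H3K4me1 in 20.2%.

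MALAT1 and NEAT1 were compared with other lncRNA genes by the distance over 4 lists between the logarithms of the widest promoter peak in each list. The 3 most like MALAT1 were ENSG00000288879, at 0.244, and ENSG00000289044 and LINC02939, which touch the same peaks, at 0.266. The H3K4me3 peak of the first also held a start of HMGA1, and that of the other two held no coding start. The 3 most like NEAT1 were ENSG00000228830, at 0.162, ENSG00000289970, at 0.188, and ENSG00000282057, at 0.196. Their peaks held starts of the coding genes IRF2BP2, TNIP1, and CCN1 with DDAH1. The promoter H3K4me3 peaks of MALAT1 and NEAT1 held no coding start.

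The sequence at the centre of the 40 FAIRE peaks was searched for 6 short motifs on both strands. AP-1 letters were found in 6 of the 40, beside 30.7% of all FAIRE peaks, and TEAD letters in 9, beside 21.4%. The E-box read by ZEB and SNAI factors (CAGGTG) was found in 12, beside 16.7%, and a GC box in 7, beside 11.7%. TATA box letters were in 5, beside 19.5%, and the ETS sequence CCGGAAG in 1, beside 3.46%. At MALAT1 and NEAT1 together 1 of 20 peaks held AP-1 letters, and at MIR21 3 of 8.

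**Figure D5:**
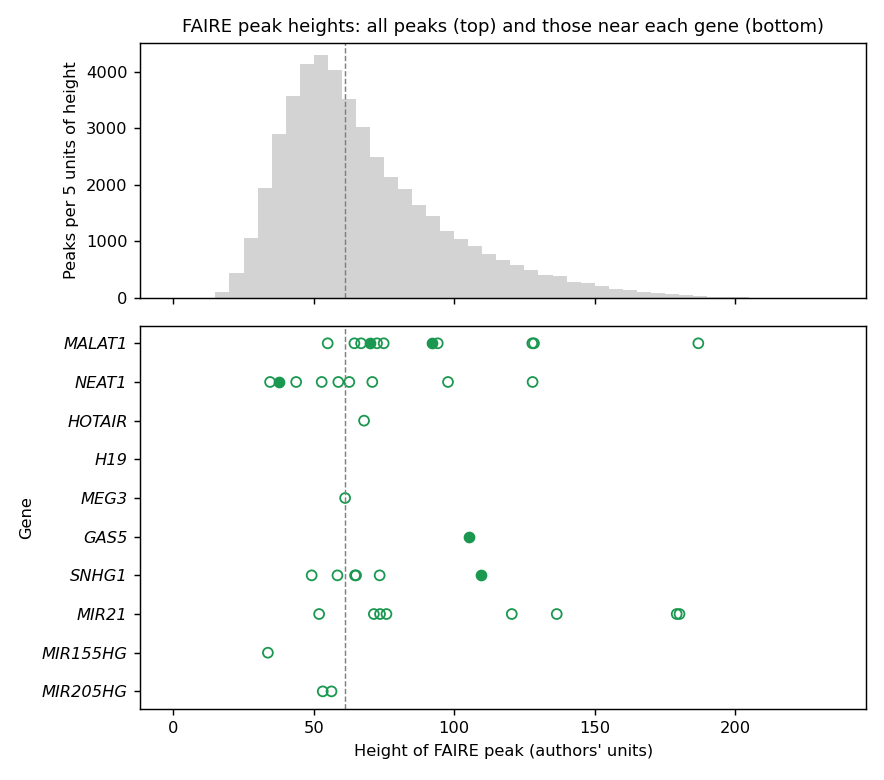
The upper panel counts all FAIRE peaks by height in the authors' units, with the list's median of 61.1 as a dashed line, and the lower panel gives each FAIRE peak near a gene, filled where it lies at the promoter. The tallest peaks of MALAT1 and MIR21, 187 and 180.2, are open circles, so they lie away from the promoters, while those of GAS5 and SNHG1 are at the promoter.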

How the data were processed

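ChIP-seq and FAIRE-seq peak lists of MDAMB231 cells were used, each made by the authors from 2 combined samples. Per the methods of the study, reads were aligned to GRCh37 (hg19) with BWA, then filtered for duplicates and poor mapping, and peaks were called against input with MACS or FindPeaks. The submitters' processing notes name hg19, TopHat and HOMER. Histone peaks carry a deposited score that is the −log10 of the MACS p-value multiplied by 10, with a threshold of 1e-5. FAIRE peaks carry a signal height in the authors' own units. They are listed as subpeaks, and some abut, so a count of them is not a count of separate open sites. Scores grow with depth, which is not in the lists and was not used here.

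The members and gene lists were chosen with earlier results of these data known. Start sites and bounds came from GENCODE release 44 lifted to GRCh37. Peaks sharing at least 1 base were found with pandas 2.3.3 and numpy 2.4.6, and the step was tested on simulated intervals with bedtools 2.31.1 as the reference. Stricter peaks had a score of at least 100 (p of 1e-10) or a FAIRE height of at least the list's median. Promoter entries were found for 7 of 10 genes, all but NEAT1, HOTAIR and MIR21. Genes were named if they were members, had a coding start in a member's window, were among the 2 with the widest promoter H3K4me3 peak or the first 3 by alphabet without a promoter peak in a listed group, or were most like MALAT1 or NEAT1. Outside this rule, marker genes are named, as are genes with a start or an exon at a described peak. Not every coding neighbour is reported here. Counts of listed genes without the members were added after seeing the data. NESP-AS1 and TP53COR1 were not found by symbol. No test was run.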

Additional observations from a re-analysis of the deposited data

How the results depend on the processing

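Promoter counts were recomputed with start sites widened by 500 bp or 2 kb, the outermost start, stricter peaks and the centre of the peak in the promoter. For H3K4me3 and H3K27Ac these gave 4 or 5 genes, beside 5, and for FAIRE 3 to 5, beside 4. The H3K4me1 count fell from 3 to 1, NEAT1, with the outermost start and also with stricter peaks, since the starts of GAS5 and SNHG1 under H3K4me1 are internal and their scores are under 100. With the centre rule it was 2, GAS5 and SNHG1. NEAT1 had no promoter FAIRE peak with the outermost or canonical start or with stricter peaks. Settings of 2 kinds were chosen after seeing the data. With the canonical start only, H3K4me1 was at 1 promoter. Without peaks that hold a protein-coding start site, H3K4me3, H3K27Ac and FAIRE were each at 2 promoters, those of MALAT1 and NEAT1. A share over lncRNA genes for this setting was computed for H3K4me3 only. Counts of peaks near the genes moved with the flank. With 10 kb there were 7 H3K4me3 and 10 H3K27Ac peaks, beside 13 and 16. With 50 kb there were 29 H3K4me3, 35 H3K27Ac, 13 H3K4me1 and 65 FAIRE peaks. With stricter peaks, 3 of 7 H3K4me1 peaks were left.

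No paired analysis was possible because the lists come from combined samples and no test was run. For the same reason no sample was left out, and the lists give no error between samples. Depth is not in the lists and was not used here, and marks below the threshold are not in the lists. Scores at 3100 cannot be ranked. Promoters shared with coding genes cannot be assigned to a gene.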
